A study of Mus musculus with 16 samples.

Results

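CD45-positive, VE-cadherin-positive cells sorted from Tie-2-Etv2 yolk sacs were set against cells of the same gate from Tie-2-Etv2 embryos proper, with 2 arrays against 2. These 4 arrays were taken from the 16 of the series by their titles, which name tissue, gate and genotype. The series crossed tissue (yolk sac or embryo proper), CD45 gate and genotype (Tie-2-Etv2 or control), with 2 arrays in each of 8 groups, all at E11.5 on a mixed strain background that includes B6/CBA. The other groups used here are CD45+ cells of control yolk sacs and control embryos, and CD45− cells of Tie-2-Etv2 yolk sacs and embryos. In Tie-2-Etv2 animals Cre recombinase under Tie-2 (Tek) regulatory sequences switches on an Etv2 transgene, so that the transgene can act in any cell with a history of Tie-2 activity, endothelial or blood. Cells were sorted by flow cytometry and their RNA was amplified from a low input and labelled with Cy3. The labels do not say whether arrays of a group came from separate embryos, litters or pools, so p-values measure the spread between these arrays, which may be technical.

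Etv2 is an ETS transcription factor that is needed early in development for endothelial cells and for the first blood cells, and its transcript is normally shut down once those lineages are set. The yolk sac is the first site of blood formation and gives rise to primitive red cells, megakaryocytes and macrophages, and by this stage macrophages have spread into the tissues of the embryo. VE-cadherin (Cdh5) is an endothelial junction protein and CD45 (Ptprc) a leukocyte phosphatase. Cells with both on their surface include blood cells that have lately left the endothelium.

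Values are levels on a log2 scale, the log2 of the processed spot intensity minus the 75th percentile of that array, so that 0 is a bright but common level and 1 unit is a 2-fold step. Differences are yolk sac minus embryo in log2 units with the SE of the limma fit, 2 arrays a group, and p-values are adjusted over the 24583 genes tested. The Etv2 transcript had levels of 2.11 and 1.76 in Tie-2-Etv2 yolk sac cells, against 0.11 and 0.94 in Tie-2-Etv2 embryo cells. In control CD45+ cells it had −6.20 and −2.09 in yolk sac, with 1 of 2 arrays well above background, and −2.38 and −2.75 in embryo. All 4 transgenic arrays therefore lay above all 4 control arrays. Both Tie-2-Etv2 yolk sac arrays lay above both Tie-2-Etv2 embryo arrays, and the tissue difference (1.41 ± 0.96, adjusted p = 0.369) did not pass the test. Its SE comes from the fit of all 16 arrays, which includes the control yolk sac arrays at −6.20 and −2.09. A call was made in 1 of 8 alternative settings, and a second Etv2 probe differed by 1.44 ± 0.78. Equal levels in the tissues are thus not shown.

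The sorting markers were present in both tissues. Ptprc had levels of 2.08 and 2.06 in yolk sac cells, against 2.91 and 2.44 in embryo cells, a difference of −0.61 ± 0.30 that did not pass (adjusted p = 0.208). Cdh5 had 2.86 and 3.13 in yolk sac cells, against 1.65 and 1.99 in embryo cells, and was 2.26-fold higher in yolk sac (1.17 ± 0.30, adjusted p = 0.0321). Tek, whose promoter drives the Cre, had 2.52 and 2.64 in yolk sac cells, against 0.14 and 0.56 in embryo cells, a 4.70-fold difference (2.23 ± 0.31, adjusted p = 0.00202). The groups did not overlap for Cdh5 or Tek. Such separation was common, with both yolk sac arrays above both embryo arrays in 9451 of 24583 genes and below in 7031. The call for Cdh5 was lost when any 1 of the 4 arrays was left out, and that for Tek was kept.

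Across all genes 3087 of 24583 (12.6%) differed between yolk sac and embryo in Tie-2-Etv2 CD45+ cells. Of these 1295 (5.27%) were higher and 1792 (7.29%) were lower in yolk sac, which makes 42.0% of the calls higher. Leaving out yolk sac replicate 1, yolk sac replicate 2, embryo replicate 1 or embryo replicate 2 gave 275, 421, 161 and 794 genes higher and 730, 855, 504 and 1364 lower. That share depended on the scaling, at 29.1% when the 75th percentile was taken over detected probes only, a scaling that moved the median difference of all genes to −0.02 against 0.08. Among the same gate of control animals 419 genes (1.70%) differed, 151 (0.614%) higher and 268 (1.09%) lower in yolk sac, and with those arrays fitted alone limma called 0 (1718 at an unadjusted p under 0.05). Of the control calls, 234 (55.8%) were also called in the same direction in Tie-2-Etv2 cells, where they make up 7.58% of the calls, and 11 were called in the opposite direction. The 2 comparisons share no array. All embryo arrays lie on 1 slide and all yolk sac arrays on the other, so tissue and slide cannot be told apart in any of these comparisons. The 4 arrays had 52.9% to 54.7% of probes well above background, and replicate arrays correlated at 0.989 in yolk sac and 0.988 in embryo over the genes tested.

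**Figure D1:**
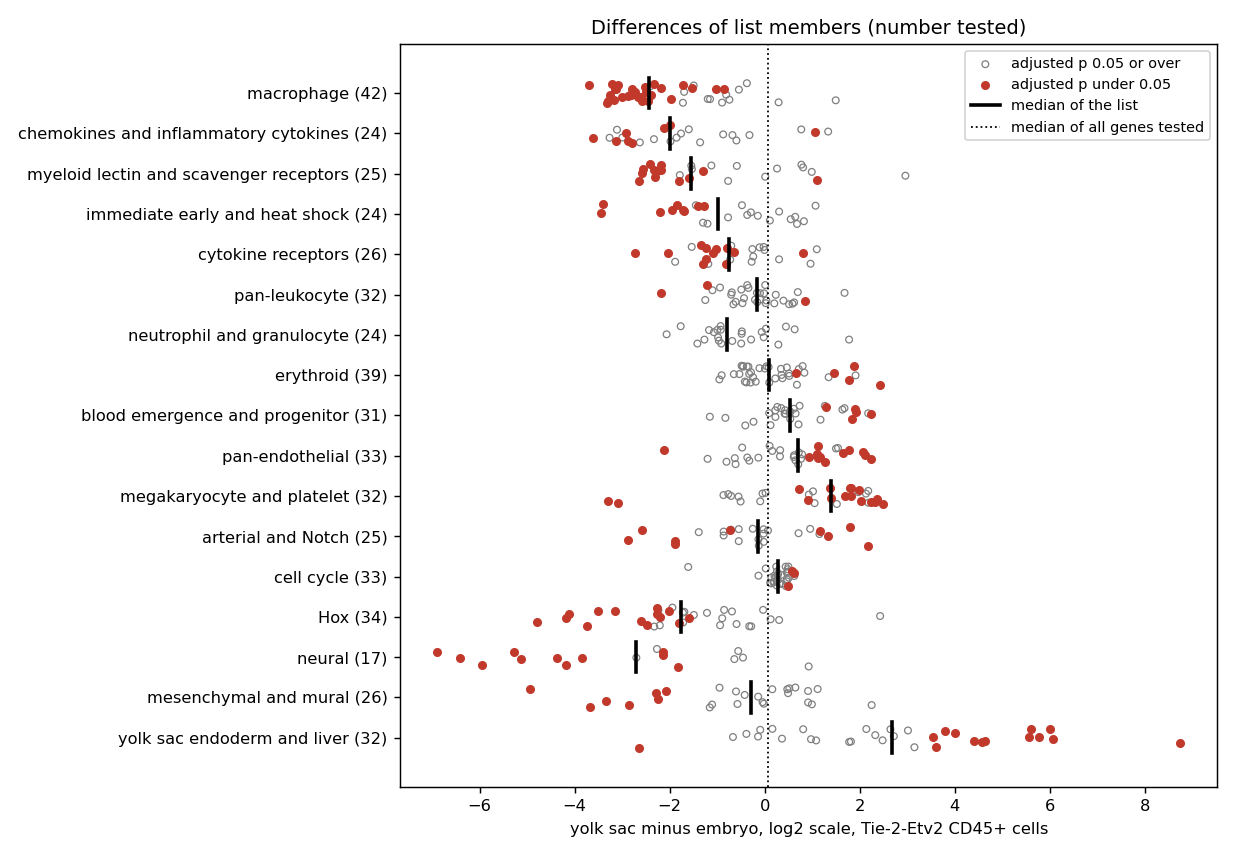
Yolk sac minus embryo difference (log2) of each tested gene of 17 gene lists in Tie-2-Etv2 CD45+ cells. Each dot is a gene, red where limma's adjusted p was under 0.05. Macrophage genes sit mostly to the left, with 29 of 42 lower, and megakaryocyte genes mostly to the right, with 14 of 32 higher.

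Macrophage genes were lower in the Tie-2-Etv2 yolk sac. Of 42 macrophage genes tested, 29 were lower, none was higher and 13 did not pass, with a median difference of −2.43 against 0.08 for all genes tested. The background share of lower genes was 7.29%. In this bulk comparison fewer cells of a type and less RNA per cell cannot be told apart. The sign of the list's median was the same under each scaling tried.

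Receptor and complement genes were among them. C1qa, which encodes a chain of the complement recognition protein C1q made by tissue macrophages, had levels of 2.21 and 2.44 in yolk sac cells, against 6.11 and 5.18 in embryo cells, a 9.97-fold lower level in yolk sac (−3.32 ± 0.38, adjusted p = 0.00103). The genes of the other C1q chains differed alike, C1qb by −3.01 ± 0.42 and C1qc by −3.17 ± 0.35. Their probes lie side by side on chromosome 4 (mm9, chr4:136452409-136452468 for C1qa, chr4:136436578-136436637 for C1qb and chr4:136445766-136445825 for C1qc). Csf1r, the receptor for the macrophage growth factor CSF1, had 5.67 and 5.93 in yolk sac cells, against 8.39 and 7.98 in embryo cells (−2.39 ± 0.26, adjusted p = 0.000872). Adgre1, which encodes the F4/80 surface protein, had 0.97 and 1.37 in yolk sac cells, against 4.36 and 3.74 in embryo cells (−2.88 ± 0.26, adjusted p = 0.000438). In each of these genes both yolk sac arrays lay below both embryo arrays, as in 7031 of all 24583 genes. The calls held under every alternative setting and with any of the 4 arrays left out.

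Of the other lower macrophage genes, Mertk, a receptor kinase for the uptake of apoptotic cells, had −1.74 and −0.80 in yolk sac cells, against 2.00 and 1.75 in embryo cells (−3.14 ± 0.50, adjusted p = 0.00367). Its relative Axl had −0.22 and −0.24 in yolk sac cells, against 2.50 and 2.25 in embryo cells (−2.61 ± 0.28, adjusted p = 0.000814). Gas6, the bridging ligand of both receptors, had 3.58 and 4.32 in yolk sac cells, against 6.52 and 6.35 in embryo cells (−2.49 ± 0.31, adjusted p = 0.00142). All 3 genes were lower in yolk sac, with no overlap of the groups, as in 7031 of all 24583 genes. F13a1, a transglutaminase chain made by early macrophages, was 3.89-fold lower (−1.96 ± 0.29, adjusted p = 0.00274).

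P2ry12, a nucleotide receptor known from platelets and from microglia, the macrophages of the brain, had −1.71 and −1.38 in yolk sac cells, against 2.17 and 1.34 in embryo cells (−3.30 ± 0.33, adjusted p = 0.000608). Trem2, a lipid-sensing receptor, had 2.08 and 1.56 in yolk sac cells, against 6.07 and 4.95 in embryo cells, the largest fold of the list at 12.9 (−3.69 ± 0.85, adjusted p = 0.0205). The call for Trem2 was lost when yolk sac replicate 1, yolk sac replicate 2 or embryo replicate 1 was left out. Of the 42 genes 3 were also lower in control yolk sac cells than in control embryo cells, Tmem119 by −1.48 ± 0.31 and Axl by −1.77 ± 0.28 among them (adjusted p = 0.0435 and 0.0155). For the other 39 genes the control tissues did not differ past the test, and the control median was 0.02. With yolk sac replicate 1, yolk sac replicate 2, embryo replicate 1 or embryo replicate 2 left out, 19, 18, 14 and 28 macrophage genes were lower.

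The 13 macrophage genes that did not pass ranged from −2.41 to 1.50 and include genes shared with other myeloid cells. Tyrobp, an adaptor of many myeloid receptors, differed by −1.20 ± 0.44 (adjusted p = 0.102), and Lyz2, a lysozyme of macrophages and granulocytes, by −0.90 ± 0.29 (adjusted p = 0.0706). Their values thus pointed the same way as the genes that passed, without passing the test themselves.

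The promoters of Trem2 and P2ry12, the most strongly lower macrophage genes with an entry in the RefSeq promoter table, are shown because ETS factors, the family of the transgene, bind sites with a GGAA core. Each is the 250 bases before the RefSeq start on GRCm38.p6, read on the gene's strand, with any match to AGGAAG or its reverse complement CTTCCT in capitals. The Trem2 window is chr17:48346151-48346400 (plus strand) and the P2ry12 window is chr3:59262986-59263235 (minus strand).
Trem2: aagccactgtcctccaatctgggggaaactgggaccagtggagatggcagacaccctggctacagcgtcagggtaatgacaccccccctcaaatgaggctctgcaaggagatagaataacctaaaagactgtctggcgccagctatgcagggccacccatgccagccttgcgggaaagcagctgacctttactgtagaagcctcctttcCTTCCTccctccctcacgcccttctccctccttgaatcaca
P2ry12: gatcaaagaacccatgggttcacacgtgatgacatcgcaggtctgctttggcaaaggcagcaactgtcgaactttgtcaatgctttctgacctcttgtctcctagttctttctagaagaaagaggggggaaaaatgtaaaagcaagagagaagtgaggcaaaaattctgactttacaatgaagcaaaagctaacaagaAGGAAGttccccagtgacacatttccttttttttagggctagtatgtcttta
Each window holds 1 such match. Among the 29 macrophage genes called lower, 19 had a promoter in the table and 10 (52.6%) held at least 1 match, against 16 of 29 (55.2%) for the whole list and 7879 of 27025 (29.2%) for all RefSeq promoters of the same length. The share in called genes was thus about that of the whole list. A GATA motif (AGATAA or TTATCT, either strand, absent from both windows shown) was found in 1 of 19 (5.26%) of the called genes, against 10.3% of all promoters. A match describes letters in a window and is not a measured binding site.

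**Figure D2:**
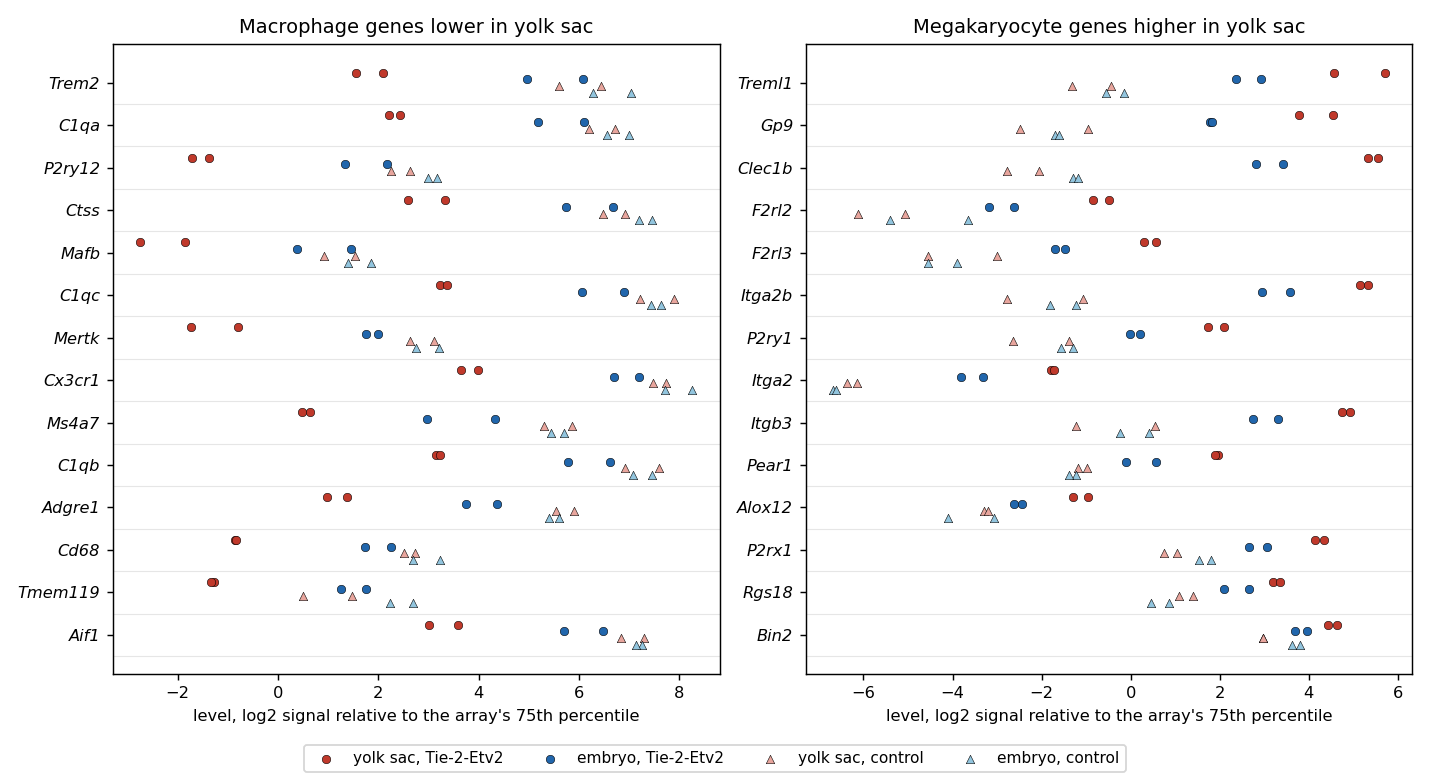
Level (log2, relative to the 75th percentile of the array) of 14 macrophage genes that were lower and 14 megakaryocyte genes that were higher in yolk sac, as 1 point per array in Tie-2-Etv2 yolk sac, Tie-2-Etv2 embryo, control yolk sac and control embryo CD45+ cells. For C1qa the yolk sac Tie-2-Etv2 arrays sit at 2.21 and 2.44, below the embryo arrays at 6.11 and 5.18, and the 4 control arrays sit between 6.20 and 6.99.

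Control cells of the same gate had higher levels of C1qa and Csf1r, and a higher summed signal of the macrophage list, than either transgenic tissue. C1qa had 6.71 and 6.20 in control yolk sac cells and 6.99 and 6.55 in control embryo cells. Csf1r had 9.30 and 8.97 in control yolk sac cells and 9.11 and 8.99 in control embryo cells. All 4 transgenic arrays lay below all 4 control arrays for both genes. The summed signal of the list, in multiples of each array's 75th percentile, was 804 and 770 in Tie-2-Etv2 yolk sac cells and 2852 and 2130 in Tie-2-Etv2 embryo cells, against 5071 and 3729 in control yolk sac cells and 4183 and 3862 in control embryo cells. Bright genes add most to such a sum, which does not show the level of each member.

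Among 25 myeloid lectin, scavenger and Toll-like receptor genes 12 (48.0%) were lower and 1 (4.0%) was higher in yolk sac. The shares of all genes were 7.29% and 5.27%, and the list's median was −1.54 (control −0.20). Tlr13, an endosomal sensor of bacterial ribosomal RNA, had 1.19 on both yolk sac arrays, against 3.79 and 3.89 in embryo cells (−2.65 ± 0.23, adjusted p = 0.000398). Tlr4, the receptor for bacterial lipopolysaccharide, had −2.11 and −1.73 in yolk sac cells, against 0.51 and 0.29 in embryo cells (−2.32 ± 0.28, adjusted p = 0.00123). The exception was Mgl2, a galactose-binding lectin, with 8.04 and 7.96 in yolk sac cells, against 6.70 and 7.11 in embryo cells (1.09 ± 0.23, adjusted p = 0.0142). The summed signal of the list, to which the bright Mgl2 adds, was 538.5 and 481 in Tie-2-Etv2 yolk sac cells and 433 and 427 in Tie-2-Etv2 embryo cells, against 380 and 395 in control yolk sac cells and 582 and 353 in control embryo cells. The sum was thus higher in the Tie-2-Etv2 yolk sac while the list's median was below 0. The count of lower genes was 8 with the 4 arrays fitted alone, and 8, 7, 5 and 11 when yolk sac replicate 1, yolk sac replicate 2, embryo replicate 1 and embryo replicate 2 were left out.

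Cytokine receptors were lower in part. Of 26 tested, 11 (42.3%) were lower and 1 (3.85%) was higher, against 7.29% and 5.27% of all genes. The median was −0.76 (control 0.04). Tnfrsf11a, the receptor RANK, had 0.29 and 1.00 in yolk sac cells, against 3.45 and 3.32 in embryo cells (−2.74 ± 0.23, adjusted p = 0.000358). Both chains of the interferon gamma receptor and both of the type I interferon receptor were among those lower, Ifngr2 by −1.34 ± 0.22, Ifngr1 by −0.64 ± 0.19, Ifnar1 by −1.09 ± 0.20 and Ifnar2 by −0.80 ± 0.23. Il2rg, the common chain of receptors for interleukin 2 and its relatives, was higher (0.81 ± 0.23, adjusted p = 0.0488). The count of lower genes was 7 without a filter on dim probes or with the 4 arrays fitted alone, and 4, 6, 1 and 7 when yolk sac replicate 1, yolk sac replicate 2, embryo replicate 1 and embryo replicate 2 were left out in turn.

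Chemokines and inflammatory cytokines gave 7 lower (29.2%) and 1 higher (4.17%) of 24, against 7.29% and 5.27% of all genes. The median was −1.99 (control −0.69). Ccl24, an eosinophil-attracting chemokine, had 0.87 and 0.97 in yolk sac cells, against 4.01 and 3.39 in embryo cells (−2.78 ± 0.30, adjusted p = 0.000856). Ccl12, a monocyte-attracting chemokine, had 1.10 and 1.33 in yolk sac cells, against 4.59 and 4.09 in embryo cells (−3.13 ± 0.52, adjusted p = 0.00464). The groups did not overlap in either gene, as was so in this direction for 7031 of all 24583 genes. Ccl3, a leukocyte-attracting chemokine, was lower by −2.12 ± 0.46 (adjusted p = 0.0164). Il1b, the inflammatory cytokine interleukin 1 beta, was higher, with 4.43 and 4.23 in yolk sac cells, against 2.99 and 3.56 in embryo cells (1.05 ± 0.28, adjusted p = 0.0354). With normexp background 13 of the list were lower, and 4, 4, 2 and 6 were when yolk sac replicate 1, yolk sac replicate 2, embryo replicate 1 and embryo replicate 2 were left out.

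Immediate early and heat shock genes, which respond within minutes to signals and to handling of cells, gave 9 lower (37.5%) and none higher of 24. The share of all genes lower was 7.29%, and the list's median was −0.99 (control 0.13). Atf3, a stress-induced transcription factor, had 3.32 and 3.03 in yolk sac cells, against 6.72 and 6.53 in embryo cells (−3.45 ± 0.49, adjusted p = 0.00243). Fos, a subunit of the AP-1 factor, had 3.50 and 3.88 in yolk sac cells, against 5.66 and 5.41 in embryo cells (−1.84 ± 0.37, adjusted p = 0.0112). Hspa1a, an inducible heat shock protein, had 0.08 and 1.57 in yolk sac cells, against 4.20 and 4.26 in embryo cells (−3.40 ± 0.76, adjusted p = 0.0174). Their part in the other differences was not tested. Left-out arrays reduced the count to 1 (without yolk sac replicate 1 or embryo replicate 1) or 3 (without yolk sac replicate 2 or embryo replicate 2).

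Many megakaryocyte and platelet genes were higher in the Tie-2-Etv2 yolk sac. Of 32 tested, 14 were higher, 2 were lower and 16 did not pass, with a median of 1.39 (control −0.21), against a background of 5.27% higher. Treml1, a receptor stored in platelet granules, had 5.71 and 4.57 in yolk sac cells, against 2.93 and 2.38 in embryo cells, a 5.61-fold higher level (2.49 ± 0.55, adjusted p = 0.017). Clec1b, the platelet receptor for podoplanin (CLEC-2), had 5.55 and 5.32 in yolk sac cells, against 2.81 and 3.42 in embryo cells (2.33 ± 0.28, adjusted p = 0.00129). Both yolk sac arrays were above both embryo arrays in each gene, as in 9451 of all 24583 genes.

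Among the 14 higher genes, Itga2b, the alpha chain of the fibrinogen receptor and an early marker of blood emergence, had 5.34 and 5.15 in yolk sac cells, against 2.95 and 3.57 in embryo cells (1.99 ± 0.47, adjusted p = 0.0235). Its partner Itgb3 had 4.93 and 4.74 in yolk sac cells, against 2.76 and 3.31 in embryo cells (1.80 ± 0.47, adjusted p = 0.0323). Gp9, part of the receptor for von Willebrand factor, had 4.54 and 3.79 in yolk sac cells, against 1.78 and 1.82 in embryo cells (2.36 ± 0.49, adjusted p = 0.0135). None of these 3 overlapped between tissues, as was so in this direction for 9451 of all 24583 genes. Pear1, a platelet contact receptor, was higher by 1.70 ± 0.23 (adjusted p = 0.00183) and Itga2, a collagen receptor chain, by 1.81 ± 0.25 (adjusted p = 0.00196). Clec1b, Pear1 and Itga2 kept their calls under every setting and with any array left out, while the count for the list was 4, 8, 3 and 8 when yolk sac replicate 1, yolk sac replicate 2, embryo replicate 1 and embryo replicate 2 were left out.

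The 2 genes of this list that were lower are also expressed by macrophages. One is P2ry12, described above, and the other is Tbxas1, thromboxane synthase, with −0.14 and −0.93 in yolk sac cells, against 2.92 and 2.19 in embryo cells (−3.09 ± 0.31, adjusted p = 0.000608). Pf4, a chemokine of platelet granules that early macrophages also express, differed by −0.51 ± 0.32 (adjusted p = 0.341). The list therefore held members that differed in opposite directions.

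In control CD45+ cells no megakaryocyte gene differed between tissues past the test. Treml1 had −1.33 and −0.45 in control yolk sac cells and −0.55 and −0.14 in control embryo cells. Clec1b had −2.78 and −2.05 in control yolk sac cells and −1.30 and −1.19 in control embryo cells. All 4 Tie-2-Etv2 arrays lay above all 4 control arrays for both genes. The summed signal of the list, in which the bright Pf4 weighs heavily, was 507 and 379 in Tie-2-Etv2 yolk sac cells and 316 and 294 in Tie-2-Etv2 embryo cells, against 698 and 510 in control yolk sac cells and 447 and 348 in control embryo cells.

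The promoters of Treml1 and Gp9, the 2 megakaryocyte genes with the largest positive differences, are shown with the same rule. The Treml1 window is chr17:48359666-48359915 (plus strand) and the Gp9 window is chr6:87777820-87778069 (plus strand), with any match to AGGAAG or CTTCCT in capitals.
Treml1: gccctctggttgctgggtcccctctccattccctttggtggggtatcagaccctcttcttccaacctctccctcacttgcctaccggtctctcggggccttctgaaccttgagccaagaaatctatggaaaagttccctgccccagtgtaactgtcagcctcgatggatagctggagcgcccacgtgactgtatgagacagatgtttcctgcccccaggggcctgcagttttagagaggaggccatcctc
Gp9: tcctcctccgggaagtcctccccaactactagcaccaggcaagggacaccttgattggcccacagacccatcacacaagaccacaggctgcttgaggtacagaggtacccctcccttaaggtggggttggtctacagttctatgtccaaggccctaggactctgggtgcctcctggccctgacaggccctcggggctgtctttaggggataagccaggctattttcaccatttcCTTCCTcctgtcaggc
Gp9 holds 1 match to AGGAAG or CTTCCT and Treml1 holds none in these 250 bases, and neither holds the GATA motif. GGAA cores outside these letters, which both windows do hold, were not marked or counted. Nor were GATA cores with other neighbouring letters, such as the GATAAG of the Gp9 window. Treml1 starts 13515 bases from Trem2 on the same strand of chromosome 17, and these near neighbours differed in opposite directions. Among the 14 megakaryocyte genes called higher 11 had a promoter in the table, of which 5 (45.5%) held an ETS match and 3 (27.3%) a GATA match. For the whole list of 32 genes, 26 were found and these counts were 15 (57.7%) and 6 (23.1%). All RefSeq promoters held them at 29.2% and 10.3%. On these 11 promoters the ETS share of called genes was thus below that of the whole list, and the GATA share was near it.

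Blood progenitor and erythroid regulators were higher for a few members. Of 31 blood emergence and progenitor genes 5 (16.1%) were higher and none lower, against 5.27% of all genes higher. The median was 0.54 (control 0.02). Mycn, a growth-promoting transcription factor of progenitors, had 2.70 and 3.19 in yolk sac cells, against 0.59 and 0.83 in embryo cells (2.23 ± 0.35, adjusted p = 0.0035). Gata2, a factor of progenitors, mast cells and megakaryocytes, had 5.31 and 4.91 in yolk sac cells, against 2.95 and 3.59 in embryo cells (1.83 ± 0.48, adjusted p = 0.0339). Meis1, Gfi1b and Tal1, transcription factors of stem cells and of the megakaryocyte and red cell lineages, were higher by 1.93 ± 0.41, 1.90 ± 0.40 and 1.29 ± 0.37. Mycn alone of the 5 kept its call under every setting and left-out array, and the count was 1 without yolk sac replicate 1, yolk sac replicate 2 or embryo replicate 1.

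Of 39 erythroid genes 5 (12.8%) were higher and none lower, against 5.27% of all genes higher. The list's median (0.08, control 0.10) was that of all genes. It turned to −0.02 when arrays were scaled on detected probes and to −0.03 without yolk sac replicate 1. Gata1, the master factor of red cells and megakaryocytes, had 4.74 and 4.07 in yolk sac cells, against 2.50 and 2.76 in embryo cells (1.78 ± 0.45, adjusted p = 0.0296). Car2, a carbonic anhydrase, had 6.12 and 6.05 in yolk sac cells, against 3.90 and 4.50 in embryo cells (1.89 ± 0.31, adjusted p = 0.00444). Aqp1, a water channel of red cells and endothelium, was higher by 1.47 ± 0.31 and Epb41, a membrane skeleton protein, by 0.67 ± 0.15, while Trim58, a ubiquitin ligase of late red cells, was at least 2.01-fold higher. None of 6 globin genes passed in limma, nor did any reach an unadjusted p under 0.05, with a median of −0.31 (control 0.81, and 0.35 without embryo replicate 2) and summed signals of 1093 and 1179 in yolk sac cells, against 906 and 2142 in embryo cells. The count of erythroid genes was 1, 3, 0 and 4 when yolk sac replicate 1, yolk sac replicate 2, embryo replicate 1 and embryo replicate 2 were left out.

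Il1rl1, the interleukin 33 receptor found on mast cells, was the 1 gene of 10 mast cell and basophil genes that passed, with 4.00 and 3.85 in yolk sac cells, against 1.20 and 1.99 in embryo cells (2.33 ± 0.32, adjusted p = 0.00202). The list's median was −0.34 (control 0.07), and was −1.04 without yolk sac replicate 1 and 0.002 without yolk sac replicate 2. None of 24 neutrophil and granulocyte genes passed in limma, where 5 were lower at an unadjusted p under 0.05, and 4 were called lower with normexp background. The median was −0.80 (control −0.36), and was −1.16 without yolk sac replicate 1 and −0.03 without yolk sac replicate 2.

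A share of the endothelial genes was higher in the Tie-2-Etv2 yolk sac. Of 33 pan-endothelial genes 11 (33.3%) were higher, 1 (3.03%) was lower and 21 did not pass. The shares of all genes were 5.27% and 7.29%, and the list's median was 0.71 (control −0.05). Rasip1, a small GTPase effector needed for vessel lumens, had 3.64 and 4.02 in yolk sac cells, against 1.81 and 2.30 in embryo cells (1.77 ± 0.27, adjusted p = 0.00341). Pecam1, the platelet and endothelial adhesion molecule CD31, had 1.65 and 1.52 in yolk sac cells, against 0.24 and 0.66 in embryo cells (1.13 ± 0.23, adjusted p = 0.0113). Esam, a junction protein of endothelium and platelets, had 3.17 and 3.68 in yolk sac cells, against 0.82 and 1.87 in embryo cells (2.08 ± 0.35, adjusted p = 0.00475). No array of one tissue overlapped the other in these genes, as was so in this direction for 9451 of all 24583 genes. Tie1, the orphan relative of Tek, and Myct1 were higher by 1.64 ± 0.35 and 2.12 ± 0.46, and Egfl7, Ecscr, Plvap and Cd93 by 0.93 to 1.26. Sox7, an endothelial transcription factor, was lower (−2.11 ± 0.51, adjusted p = 0.025) and was well above background on 1 of 2 yolk sac arrays.

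The summed signal of the pan-endothelial list was 508 and 510 in Tie-2-Etv2 yolk sac cells and 252 and 319 in Tie-2-Etv2 embryo cells, against 197 and 133 in control yolk sac cells and 155 and 135 in control embryo cells. Both transgenic tissues lay above their controls. The count of higher genes was 7 with the 4 arrays fitted alone, and 4, 4, 3 and 10 when yolk sac replicate 1, yolk sac replicate 2, embryo replicate 1 and embryo replicate 2 were left out, with Tek and Rasip1 kept throughout.

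Genes of arteries, veins and Notch signalling differed in both directions. Of 25 arterial and Notch genes 4 were higher and 5 lower, with a median of −0.13 (control 0.17). Mfng, a glycosyltransferase that modifies Notch receptors, had 6.12 and 5.98 in yolk sac cells, against 4.72 and 5.06 in embryo cells (1.17 ± 0.16, adjusted p = 0.00217). Dll4, the arterial Notch ligand, had −2.36 and −0.88 in yolk sac cells, against −3.99 and −3.60 in embryo cells (2.17 ± 0.43, adjusted p = 0.0104), and the Notch target Nrarp and the arterial connexin Gja4 were higher by 1.79 ± 0.39 and 1.34 ± 0.24. Nrp1, a co-receptor for VEGF that some macrophages also carry, had −2.36 and −1.71 in yolk sac cells, against 0.76 and 0.34 in embryo cells (−2.59 ± 0.35, adjusted p = 0.00192). The BMP9 receptor Acvrl1, the receptor Notch3 and the Notch effector Rbpj were lower by −1.88 ± 0.31, −1.89 ± 0.53 and −0.74 ± 0.20, and the ligand Dll1 was at least 2.51-fold lower. Without 1 array the higher count was 2, 2, 2 and 5 and the lower count 3, 3, 2 and 3, in the order yolk sac replicate 1, yolk sac replicate 2, embryo replicate 1 and embryo replicate 2.

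Of 13 venous and lymphatic genes 2 (15.4%) were higher and 4 (30.8%) lower, against 5.27% and 7.29% of all genes. The median was −0.12 (control 0.11), and was 0.03 without yolk sac replicate 1. Ackr1, a chemokine scavenger of venules and red cells, had 0.98 and 0.47 in yolk sac cells, against −1.82 and −2.15 in embryo cells (2.71 ± 0.46, adjusted p = 0.00479), and Flt4, the receptor for VEGF-C, was higher by 1.73 ± 0.31. Stab1, a scavenger receptor of sinusoidal endothelium and macrophages, had 3.94 and 4.86 in yolk sac cells, against 7.04 and 7.02 in embryo cells (−2.63 ± 0.42, adjusted p = 0.00375). Lyve1, a hyaluronan receptor of lymphatic endothelium and of macrophages, was lower by −2.61 ± 0.48, Nr2f2, the venous transcription factor COUP-TFII, by −2.69 ± 0.36, and Nrp2 by −1.14 ± 0.26. The lower count was 2 without yolk sac replicate 1 or embryo replicate 1.

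Basement membrane genes gave 2 higher (11.8%) and 1 lower (5.88%) of 17, against 5.27% and 7.29% of all genes. The median was −0.01, against 0.83 in control cells, and was 0.19 and 0.10 without yolk sac replicate 1 or embryo replicate 1. Fn1, fibronectin, had 5.60 and 5.68 in yolk sac cells, against 3.90 and 3.95 in embryo cells (1.71 ± 0.18, adjusted p = 0.000814) and also differed in control cells (1.01 ± 0.18, adjusted p = 0.0273). Col18a1, the collagen that yields endostatin, had 4.59 and 4.56 in yolk sac cells, against 2.51 and 2.81 in embryo cells (1.92 ± 0.25, adjusted p = 0.0016). Nid2, a nidogen, was lower by −1.10 ± 0.31 (adjusted p = 0.0446).

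Other ETS factors are of interest beside an ETS transgene. Of 19 tested 1 (5.26%) was higher and 3 (15.8%) were lower, all 3 of the PEA3 subfamily, which responds to growth factor signalling. The shares of all genes were 5.27% and 7.29%. The list's median was 0.02 and turned to −0.08 with scaling on detected probes and to −0.02 with the mean of probes or without yolk sac replicate 2 or embryo replicate 1. Etv1 had −1.19 and −0.31 in yolk sac cells, against 2.04 and 1.74 in embryo cells (−2.64 ± 0.33, adjusted p = 0.0014). Etv5 had 1.41 and 2.12 in yolk sac cells, against 4.26 and 4.17 in embryo cells (−2.45 ± 0.39, adjusted p = 0.00367). Etv4 had −1.94 and −2.05 in yolk sac cells, against −0.40 and −0.71 in embryo cells (−1.44 ± 0.23, adjusted p = 0.00362). These 3 kept their calls under every setting and left-out array. Second probes of Etv1 and Etv4 differed by −1.49 ± 0.72 and −3.23 ± 0.26. A second Elk1 probe was lower by −1.03 ± 0.26 (limma adjusted p = 0.034 over probes), while the Elk1 probe used differed by 0.035 ± 0.21. Fev was higher by 0.73 ± 0.20 (adjusted p = 0.0365), a call kept in 4 of 9 alternatives and in 1 of 4 fits with an array left out. It was lost with scaling on detected probes, normexp background, no filter on dim probes, a trended robust prior and the 4 arrays fitted alone, and without yolk sac replicate 1, yolk sac replicate 2 or embryo replicate 1.

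Marker genes of tissues that surround the sorted cells differed too. Of 32 yolk sac endoderm and liver genes 13 (40.6%) were higher and 1 (3.12%) was lower, against 5.27% and 7.29% of all genes. The median was 2.69, against 3.96 in control cells, where 12 were higher. Afp, the alpha-fetoprotein secreted by visceral endoderm, had 5.97 and 7.59 in yolk sac cells, against 2.02 and 2.40 in embryo cells, a 23.7-fold difference (4.57 ± 0.85, adjusted p = 0.00756; control 5.28). S100g, a calcium-binding protein of absorptive epithelium, had 0.88 and 3.03 in yolk sac cells and was well above background on neither embryo array, an at least 98.5-fold difference (adjusted p = 0.00116). The apolipoprotein genes Apoa1, Apob and Apoa4 were at least 40.1-fold, 29.0-fold and 16.5-fold higher on the same basis. The exception was Dab2, an endocytic adaptor of endoderm and of macrophages (−2.64 ± 0.48, adjusted p = 0.0071). The 2 yolk sac arrays were unlike, replicate 2 being higher for every gene just named as higher, and the count of higher genes was 10, 3, 4 and 8 when yolk sac replicate 1, yolk sac replicate 2, embryo replicate 1 and embryo replicate 2 were left out. Of the whole list 2 genes were well above background on neither yolk sac array and 5 on neither embryo array. The summed signal was 150 and 394 in Tie-2-Etv2 yolk sac cells and 150 and 116 in Tie-2-Etv2 embryo cells, against 1139 and 433 in control yolk sac cells and 182 and 188 in control embryo cells. The part of endoderm RNA in the other differences was not tested.

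**Figure D3:**
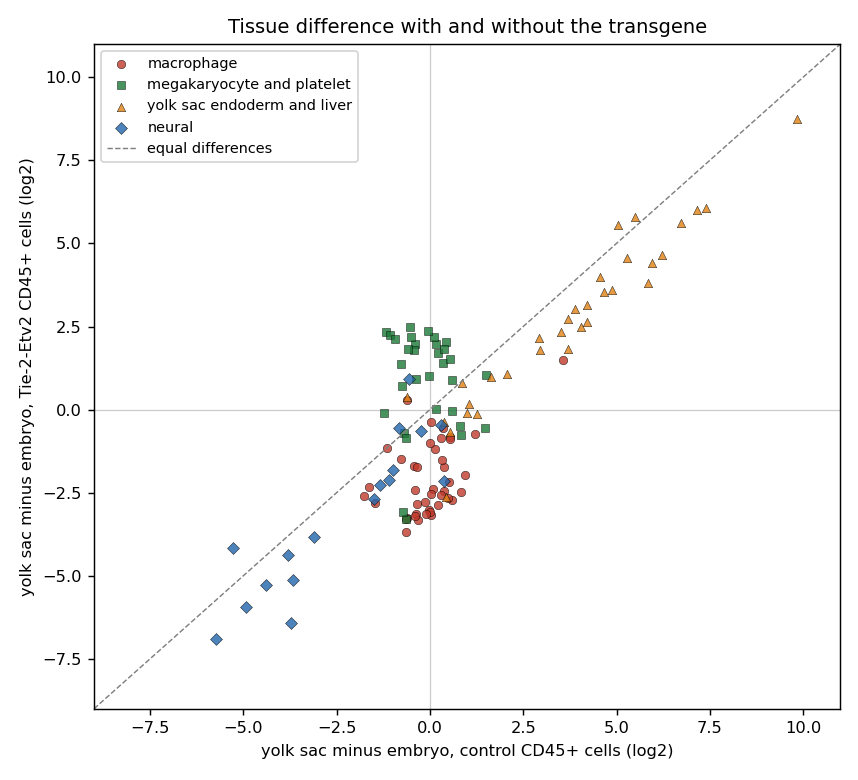
Yolk sac minus embryo difference (log2) in Tie-2-Etv2 CD45+ cells against the same difference in control CD45+ cells, for the macrophage, megakaryocyte, yolk sac endoderm and neural lists, 1 point per gene. Macrophage genes had medians of −2.43 in Tie-2-Etv2 and 0.02 in control cells and megakaryocyte genes of 1.39 and −0.21, while endoderm genes lay to the same side in both (2.69 and 3.96).

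Neural genes were on the embryo side. Of 17 neural genes 11 (64.7%, against 7.29% of all genes) were lower and none higher in yolk sac. The median was −2.70, or −2.14 with 7 genes at their bounds, against −1.50 in control cells. Fabp7, a fatty acid binding protein of neural progenitors, was well above background on neither yolk sac array and had 1.12 and −0.40 in embryo cells, an at least 32.9-fold lower level (adjusted p = 0.000343). Stmn2, a microtubule regulator of neurons, was at least 26.4-fold lower (adjusted p = 0.000343). Nes, an intermediate filament of progenitors and of some endothelium, was measured on all 4 arrays, with −0.15 and −0.23 in yolk sac cells, against 1.94 and 1.31 in embryo cells (−1.82 ± 0.24, adjusted p = 0.0016). Of the list 9 genes were well above background on neither yolk sac array and none on neither embryo array. The summed signal was low, 3.35 and 2.36 in Tie-2-Etv2 yolk sac cells and 19 and 12 in Tie-2-Etv2 embryo cells, against 30 and 11 in control yolk sac cells and 21 and 29 in control embryo cells. The count of lower genes was 7, 6, 6 and 10 when yolk sac replicate 1, yolk sac replicate 2, embryo replicate 1 and embryo replicate 2 were left out, and 3 of 5 under the strict filter on dim probes.

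Mesenchymal and mural genes gave 7 lower (26.9%, against 7.29% of all genes) and none higher of 26. The median was −0.28 (control 0.19), and was 0.16 under the strict filter on dim probes. Prrx1, a factor of limb and facial mesenchyme, was at least 9.04-fold lower (adjusted p = 0.00402), and Pdgfra, a mesenchymal receptor kinase, at least 7.33-fold lower (adjusted p = 0.0185). On neither yolk sac array were 11 of the list well above background, and on neither embryo array 7. The summed signal was 13 and 17 in Tie-2-Etv2 yolk sac cells and 18 and 12 in Tie-2-Etv2 embryo cells, against 70 and 29 in control yolk sac cells and 10 and 22 in control embryo cells. The lower count was 3 with normexp background, 0 of 9 under the strict filter, and 2, 4, 2 and 4 when yolk sac replicate 1, yolk sac replicate 2, embryo replicate 1 and embryo replicate 2 were left out.

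Of 13 cardiac and skeletal muscle genes 3 (23.1%, against 7.29% of all genes) were lower and none higher. The median was −0.86 (control −0.96), and was 1.04 under the strict filter. Actc1, the cardiac actin, was well above background on 1 of 2 yolk sac arrays, with −4.97 and −3.54, against 0.58 and −0.69 in embryo cells (−4.20 ± 0.64, adjusted p = 0.00321). The summed signal was 2.54 and 2.07 in yolk sac cells and 3.16 and 2.29 in embryo cells, with 4 genes well above background on neither yolk sac array and 2 on neither embryo array. Of 12 epithelial genes 2 (16.7%, against 5.27% of all genes) were higher and none lower, with a median of 1.55 (control 2.33). These were Epcam and Cldn6, adhesion and tight junction genes that were at least 5.03-fold and 4.35-fold higher (adjusted p = 0.0153 and 0.0375). Both lost their calls with normexp background. Epcam also lost its call with the 4 arrays fitted alone and when yolk sac replicate 1 or embryo replicate 1 was left out, and Cldn6 with no filter on dim probes and when any 1 of the 4 arrays was left out. The epithelial sum was 20.8 and 30.1 in yolk sac cells and 11.7 and 13.1 in embryo cells, with 1 gene well above background on neither yolk sac array and 3 on neither embryo array. The part of these neighbouring tissues in the other differences was not tested.

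**Figure D4:**
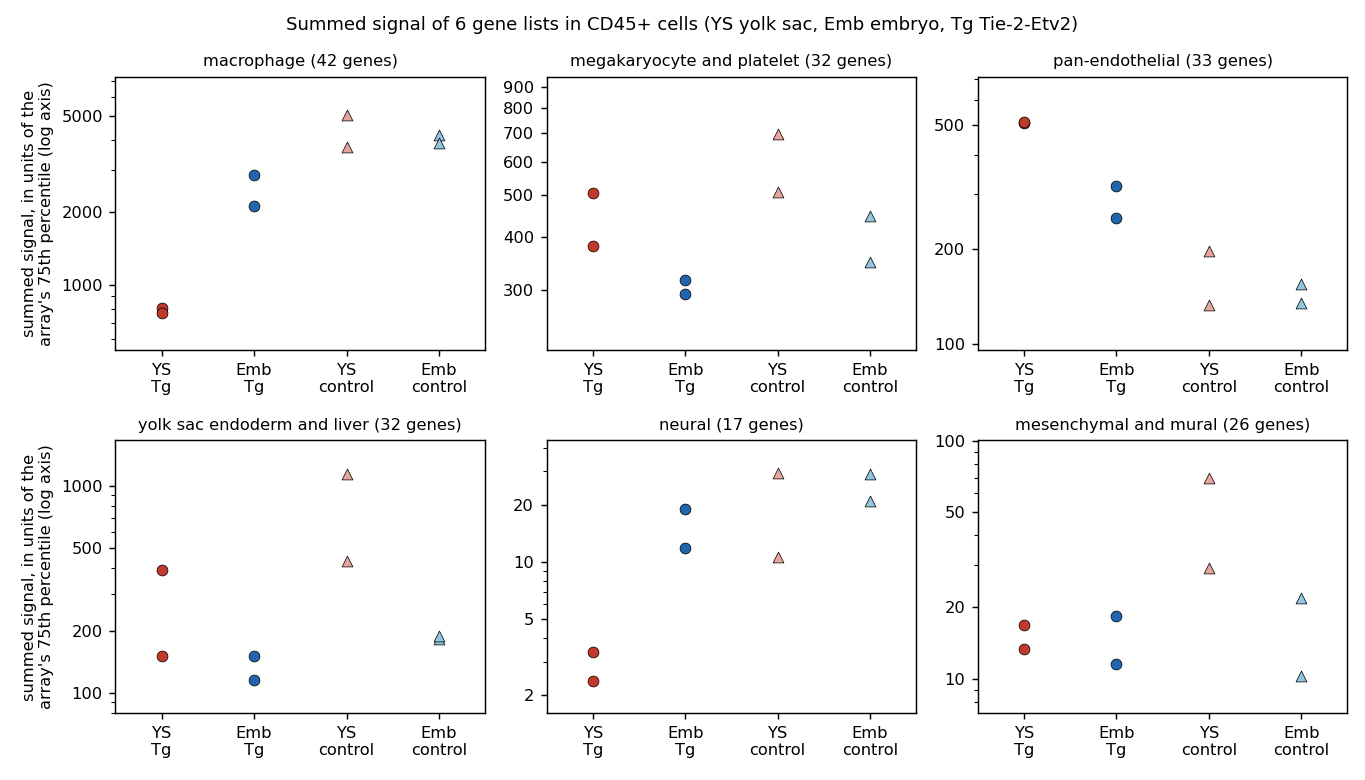
Summed signal of 6 gene lists on each array, in multiples of the 75th percentile of that array, on a log axis, in Tie-2-Etv2 yolk sac, Tie-2-Etv2 embryo, control yolk sac and control embryo CD45+ cells. The macrophage sum is 804 and 770 on the Tie-2-Etv2 yolk sac arrays, below all other arrays, and the neural sum is 3.35 and 2.36 there.

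Hox genes, which pattern the trunk along its axis, gave 14 lower (41.2%, against 7.29% of all genes) and none higher of 34. The median was −1.76, or −1.51 with 11 genes at their bounds (control −1.18). Hoxa3 was at least 5.76-fold lower (adjusted p = 0.0035) and Hoxc4 at least 8.70-fold lower (adjusted p = 0.00642). These are differences near the floor of the arrays, since 23 of the 34 were well above background on neither yolk sac array and 7 on neither embryo array, and the summed signal was 3.31 and 2.80 in yolk sac cells and 5.88 and 5.41 in embryo cells. With normexp background 2 were lower with a median of −0.31, under the strict filter 1 of 4 was lower, and the left-out arrays gave 4, 6, 1 and 8 in the order yolk sac replicate 1, yolk sac replicate 2, embryo replicate 1 and embryo replicate 2.

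Of 32 pan-leukocyte genes 1 (3.12%) was higher and 2 (6.25%) were lower, near the shares of all genes (5.27% and 7.29%), with a median of −0.16 (control −0.01) and summed signals of 1230 and 1149 in yolk sac cells, against 1299 and 1323 in embryo cells. Ncf1, a subunit of the phagocyte oxidase, was lower by −1.20 ± 0.21, and Btk, a kinase of B cells and myeloid cells, was higher by 0.85 ± 0.21. Of 23 leukocyte adhesion and chemokine receptor genes 2 (8.7%) were lower, C3ar1 and Ccr1, receptors for complement and chemokines (−2.40 ± 0.53 and −2.28 ± 0.45). The integrin chain Itgb7 (1.80 ± 0.44) was the 1 (4.35%) that was higher, and the median was −0.37 (control 0.05). Antigen presentation gave 2 lower of 18 (11.1%), Cd83 and the co-stimulator Cd86 (−3.03 ± 0.53 and −2.32 ± 0.27), with a median of −0.30 (control 0.12).

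Interferon response genes gave 2 lower of 36 (5.56%, under the 7.29% of all genes), Ifi27 and Irf9 (−1.20 ± 0.21 and −0.92 ± 0.24). The median was −0.69 (control 0.40), and 7 were lower when the 4 arrays were fitted alone. Lymphoid genes gave 3 higher (14.3%) and 2 lower (9.52%) of 21, with a median of 0.12 (control −0.20), and most of these were dim. The adaptor Lat, also used by platelets, was higher by 1.78 ± 0.44 and the natural killer receptor Klrb1c by 2.40 ± 0.67, while the factors Ebf1 and Bcl11b were at least 3.94-fold and 3.37-fold lower.

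Of 33 cell cycle genes Mcm3, Mcm7 and Top2a, which act in DNA replication, were higher by 0.49 ± 0.13, 0.63 ± 0.17 and 0.58 ± 0.15. These are 9.09% of the list, against 5.27% of all genes. None was lower, and the median was 0.29 (control 0.09). No cell cycle call remained when any 1 array was left out, when the 4 arrays were fitted alone or when dim probes were kept, and 9 were higher with a trended robust prior. Of 25 glycolysis and hypoxia genes the glucose transporter Slc2a1 and the kinase Pfkl (8.0% of the list) were higher by 0.82 ± 0.23 and 0.99 ± 0.22, with a median of 0.26 (control −0.02). Gdf15, a stress-induced cytokine, was the 1 gene of 21 (4.76%, under the 7.29% of all genes lower) in the p53 and apoptosis list that passed in limma (−3.26 ± 0.83, adjusted p = 0.0304). The list's median was 0.02 (control −0.23), and its sign varied over the alternatives. Of 23 imprinted genes 3 were lower and 1 (4.35%) was higher, against 7.29% of all genes lower and 5.27% higher. The share higher was thus under that of all genes, and the share lower was above it on 3 genes. The imprinted median was 0.15 (control 0.41). It was −0.09 with the mean of probes, −0.32 without yolk sac replicate 2 and −0.08 without embryo replicate 2. Nnat, a membrane proteolipid of developing brain, was lower by −2.96 ± 0.47 (adjusted p = 0.00379). None of 4 sex chromosome genes passed in limma or reached an unadjusted p under 0.05. Of the genes named in the last paragraphs on leukocyte, interferon, lymphoid, cell cycle, glycolysis, p53 and imprinted genes, Cd86 and Nnat kept their calls under every setting and left-out array.

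By size of difference, among genes well above background on all 4 arrays, the lists above hold 6 of the 15 genes with the largest positive difference and 2 of the 15 with the largest negative one. Outside the lists, Gm4788, a complement factor H relative, had −3.02 and −2.72 in yolk sac cells, against 1.27 and 0.34 in embryo cells (−3.68 ± 0.31, adjusted p = 0.000358). Gpr34, a lysophospholipid receptor of microglia, had −1.47 and −1.35 in yolk sac cells, against 2.32 and 1.81 in embryo cells (−3.47 ± 0.35, adjusted p = 0.000616). Mpeg1, the pore-forming protein of macrophages, was lower by −3.48 ± 0.55 (adjusted p = 0.0038). Between the control tissues Gpr34 differed by −0.26 and Mpeg1 by −1.23, neither past the test. Lower by 3.47 to 3.76 were also Igfbp5, Col2a1, the cartilage collagen, Ptn, Cpe and Insm1, and of the chemokine list Cxcl12, a stromal chemokine.

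On the other side B3galt5, a galactosyltransferase, had 1.35 and 1.25 in yolk sac cells, against −2.17 and −1.48 in embryo cells (3.13 ± 0.48, adjusted p = 0.00349), with 0.25 between control tissues. Dpp4, a dipeptidyl peptidase (CD26), had 1.00 and 0.82 in yolk sac cells, against −2.0 and −1.63 in embryo cells (2.72 ± 0.31, adjusted p = 0.000941), and differed in control cells too (1.88, adjusted p = 0.0176). Neither gene had overlapping tissues, as was so in this direction for 9451 of all 24583 genes. Kng1, the kininogen gene, had 0.45 and 1.97 in yolk sac cells, against −3.69 and −3.92 in embryo cells (5.02 ± 1.01, adjusted p = 0.0113), and Ttr, the thyroxine carrier transthyretin, was higher by 4.64 ± 1.05 (adjusted p = 0.0185). Both were higher in control yolk sac as well, by 6.52 and 6.23 (adjusted p = 0.0145 and 0.0197).

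Among genes measured in 1 tissue and dim on both arrays of the other, those with the largest bounds include genes outside the lists. Col26a1, an extracellular collagen, Sox11, a neural transcription factor, and Crmp1, an axon guidance mediator, were at least 47.7-fold, 47.3-fold and 37.0-fold lower in yolk sac (adjusted p = 0.000616, 0.000673 and 0.000343). Spp2, a secreted phosphoprotein of liver, was at least 49.0-fold higher (adjusted p = 0.00348).

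Whether the tissue difference itself changed with the transgene was tested as a difference of differences, yolk sac minus embryo in Tie-2-Etv2 CD45+ cells minus the same in control CD45+ cells. It passed for 770 genes (3.13%), 270 (1.10%) more positive and 500 (2.03%) more negative. Of 42 macrophage genes 12 were more negative and none more positive. Adgre1 (−3.11 ± 0.37, adjusted p = 0.00754), Gas6 (−3.32 ± 0.44, adjusted p = 0.00816), F13a1 (−2.89 ± 0.41, adjusted p = 0.00953) and Csf1r (−2.47 ± 0.37, adjusted p = 0.0122) were among them. All C1q chain genes passed too, C1qa at −3.00 ± 0.54 (adjusted p = 0.0205). Axl and Tmem119, lower in both genotypes, did not pass this test. Of 25 myeloid lectin, scavenger and Toll-like receptors 7 were more negative and 1 more positive, Clec4a1 by −3.09 ± 0.39 and Tlr4 by −2.73 ± 0.40, and of the chemokines 3 were, with Ccl24 at −3.20 ± 0.42. Calls of this test depended on the spread borrowed from other groups: with the compared arrays fitted alone limma gave 0 calls, with 3610 genes at an unadjusted p under 0.05. Left-out arrays gave 36, 104, 25 and 203 more positive and 86, 229, 63 and 422 more negative genes for Tie-2-Etv2 yolk sac replicates 1 and 2 and embryo replicates 1 and 2, and 94, 649, 232 and 441 more positive and 203, 942, 293 and 501 more negative for the control arrays in the same order.

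Of 32 megakaryocyte genes 5 were more positive, Clec1b (3.50 ± 0.40, adjusted p = 0.00749), P2rx1 (2.15 ± 0.32, adjusted p = 0.0122), P2ry1 (2.41 ± 0.55, adjusted p = 0.0445), Pear1 (1.48 ± 0.32, adjusted p = 0.0389) and Bin2 (1.46 ± 0.27, adjusted p = 0.0223). P2rx1 and P2ry1 are the platelet receptors for ATP and ADP. P2ry12 and Tbxas1 were more negative. Of 33 pan-endothelial genes 3 were more positive, Rasip1 (2.13 ± 0.39), Tie1 (2.21 ± 0.50) and Ecscr (1.43 ± 0.32). Mfng (1.52 ± 0.23), Gfi1b (2.61 ± 0.57), Ackr1 (2.79 ± 0.64) and Il1rl1 (2.03 ± 0.45) were more positive in their lists, and Etv1 (−3.10 ± 0.47), Etv5 (−2.57 ± 0.55), Nrp1 (−2.67 ± 0.50) and Stab1 (−3.21 ± 0.59) more negative. No neural, Hox or epithelial gene passed. Among 32 endoderm genes none was more positive and 1 was more negative.

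The same tissue difference was set against that in CD45− cells of Tie-2-Etv2 animals, where the embryo titles name only Tie-2 while their genotype label and source name give Tie-2-Etv2. The difference of differences passed for 1650 genes (6.71%), 718 (2.92%) more positive and 932 (3.79%) more negative. Leaving out any 1 of the 8 arrays gave 364 to 609 more positive and 504 to 782 more negative. Leukocyte genes were more negative, 28 of 32 pan-leukocyte and 24 of 42 macrophage genes, with none more positive in either list. Ptprc was more negative by −2.92 ± 0.42 (adjusted p = 0.0031), and had levels of −2.92 and −3.43 in CD45− yolk sac cells while it was well above background on neither CD45− embryo array. Cd86, a co-stimulator of antigen-presenting cells, had −3.38 and −3.55 in CD45− yolk sac cells and was likewise dim in CD45− embryo cells. In the CD45− gate both genes were thus measured in yolk sac and dim in embryo. The lists as a whole were brighter than these 2 genes. The pan-leukocyte summed signal was 885 and 651 in CD45− yolk sac cells and 193 and 176 in CD45− embryo cells. In CD45+ cells it was 1230 and 1149 in yolk sac and 1299 and 1323 in embryo. The macrophage sum was 346 and 348 in CD45− yolk sac cells and 129 and 144 in CD45− embryo cells.

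Endothelial genes were more positive, 17 of 33 and none more negative. Ecscr, an endothelial surface protein, was more positive by 2.85 ± 0.32 (adjusted p = 0.001), with 3.43 and 3.71 in CD45− yolk sac cells and 5.37 and 5.28 in CD45− embryo cells. Pecam1 was more positive by 2.30 ± 0.32 (adjusted p = 0.00283), with 1.67 and 1.88 in CD45− yolk sac cells and 2.79 and 3.08 in CD45− embryo cells. In both genes yolk sac was the higher tissue in the CD45+ gate and the lower in the CD45− gate. Of 32 megakaryocyte genes 2 were more positive and 6 more negative, and Treml1 had 7.75 and 6.79 in CD45− yolk sac cells and 5.61 and 4.71 in CD45− embryo cells, so that yolk sac was higher in both gates.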

How the data were processed

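Spot intensity values were deposited as scanner output, made with Agilent Feature Extraction 10.7 per the submitters' processing notes. Per the file headers, the processed signal is background-subtracted within each array and not normalized between arrays. The deposited series value table was not used, since it is centred within tissue and gate. Replicate spots of a probe were averaged, control and outlier spots left out, and log2 levels taken relative to each array's 75th percentile. Probes entered the fit where both arrays of some group measured them well above background, and the brightest probe stood for a gene. Of 55681 probes 87 were dropped with an array lost to outlier flags, and 25948 had no symbol in the RefSeq table. Probe coordinates are mm9, as in the files, and promoter sequences are RefSeq's on GRCm38.p6. All 16 arrays were fitted with limma 3.58.1 (lmFit, eBayes, R 4.3.3) on 8 group means, with Benjamini-Hochberg adjustment per comparison at 0.05, two-sided, and the script was tested on simulated data. A gene dim on both arrays of a group is given as a bound, the bright group's mean over a floor taken on each dim array, the lowest signal well above background or the gene's own signal where that is higher. No spot was saturated, and the number of arrays limits the precision. Genes named were taken from the members of 32 lists, the 15 measured genes with the largest differences and the 8 with the largest bounds each way, the 8 largest each way in each difference of differences, and Etv2, Ptprc, Cdh5 and Tek. The members and lists were chosen with earlier results of these data known. Alternatives changed the scaling, background, probe filter, probe summary, prior, arrays fitted, replicate block and arrays left out. Single values of a few list members are not reported here, and these genes stay in the counts and medians of their lists.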

Additional observations from a re-analysis of the deposited data

Results flagged for a closer look

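These genes had the largest differences of differences by genotype or gate, each tested in limma with an adjusted p under 0.05. Such a value is not the tissue difference in Tie-2-Etv2 CD45+ cells and can come from the other groups. Against control CD45+ cells the more positive genes were Dnah7a at 4.22, Gzmc at 4.08, Olfr1325 at 3.71, Gm4841 at 3.69, Col25a1 at 3.67, Cntn3 at 3.66, Vmn1r12 at 3.59 and Ramp3 at 3.56 on the log2 scale. Of these, Gzmc, Olfr1325 and Vmn1r12 were well above background in Tie-2-Etv2 yolk sac cells and on neither array of Tie-2-Etv2 embryo cells, at least 6.52-fold, 3.57-fold and 3.74-fold higher. Gm4841 was well above background in control embryo cells and on neither array of the other 3 CD45+ groups, so its value comes from control embryo. In Tie-2-Etv2 cells the tissue difference did not pass for Dnah7a or Gm4841. The more negative genes were Klra2 at −6.43, Rerg at −5.77, Cdhr3 at −4.80, Sirpb1b at −4.75, Chp2 at −4.68, Bche at −4.61, Cbr2 at −4.55 and Kif5c at −4.36. For Klra2, Rerg and Sirpb1b the tissues differed in control cells (4.53, 4.40 and 4.12, higher in control yolk sac) and not past the test in Tie-2-Etv2 cells. Cdhr3, Chp2 and Bche were well above background on neither Tie-2-Etv2 yolk sac array and on both arrays of the other 3 CD45+ groups. Other probes gave smaller differences of differences, 1.44 and 1.28 for Col25a1, 2.95 for Ramp3 and −3.36 for Cbr2.

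Against CD45− cells of the same animals the more positive genes were Gm1987 at 6.19, Foxf2 at 5.22, Adamts8 at 5.10, Adamtsl2 at 5.09, Dtx1 at 4.93, Car8 at 4.89, Calca at 4.79 and Lancl3 at 4.77. Gm1987, Foxf2 and Adamts8 were well above background on neither CD45− yolk sac array and on both CD45− embryo arrays. In Tie-2-Etv2 CD45+ cells the tissue difference did not pass for Foxf2, Adamts8 (−0.03 ± 0.78), Adamtsl2, Dtx1, Calca, Lancl3 or, of the genes below, Mcoln2. A second probe differed there by 0.24 ± 0.58 for Car8 (2.17 ± 0.42 for the probe used) and by 2.74 ± 0.68 for Calca (0.94 ± 0.59). The more negative genes were Hpgds at −6.45, Mcoln2 at −6.29, Trem2 at −6.13, Cd86 at −6.11, Cx3cr1 at −6.00, Cd300c2 at −5.88, Ccl3 at −5.78 and Ccl4 at −5.64, of which Trem2, Cx3cr1, Ccl3 and Ccl4 are macrophage or chemokine genes. Groups of 2 arrays are too small for a test of single outlying arrays.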

How the results depend on the processing

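The labels do not say that replicate numbers pair samples, and 2 arrays a group cannot settle it, so the numbers were not used as a pairing. The replicates' deviations correlated from −0.047 to 0.385 over the pairs of groups, at 0.139 between the tissues of Tie-2-Etv2 CD45+ cells and at 0.372 in yolk sac and 0.222 in embryo between the CD45 gates of Tie-2-Etv2 cells. With the number as a replicate block the main comparison had 1826 genes higher and 2145 lower, the comparison with control differences 429 and 642, that with CD45− differences 853 and 1251 (718 and 932 without the block), and no call of a named gene reversed. In the main comparison the count of higher genes was 720 with no filter on dim probes and 629 with the compared arrays alone, and ranged from 161 to 794 with 1 array left out, where lower genes ranged from 504 to 1364. In the difference from control cells higher genes numbered 461 with normexp background, 90 with no filter, 452 with a trended robust prior and 0 with the compared arrays alone, and lower genes 231 with no filter and 0 alone. Left-out arrays gave ranges of 25 to 649 and 63 to 942. In the difference from CD45− cells left-out arrays gave ranges of 364 to 609 and 504 to 782. In control cells higher and lower genes numbered 40 and 86 with normexp, 78 and 144 with no filter, 30 and 77 with the strict filter, 0 and 0 alone, and ranged from 83 to 469 and 160 to 422 with 1 array left out. Among genes named for their difference of differences, Gm4841, whose difference in Tie-2-Etv2 cells was near 0, had −0.079 with scaling on detected probes, −0.02 with normexp, and −0.11 to 0.15 with 1 array left out. Adamts8 had −0.51 against CD45− cells under the strict filter and −0.14 to 0.089 in Tie-2-Etv2 cells with 1 array left out, where Rerg ranged from −2.79 to 0.043 and Sirpb1b from −1.90 to 0.65. The cause of these shifts was not tested. The tissues lie on separate slides and each group has 2 arrays, so that slide and tissue cannot be told apart and the count of calls moves with single arrays.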
